A study of Homo sapiens with 2 samples.

Results

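The transcripts of the mitochondrial genome were examined in the human cell line NCI-H460, derived from a large cell carcinoma of the lung, after transfection with an siRNA against CYP4F11. All genes of the count table whose symbol starts with MT- were taken, which gave 37 of 58735 genes: 13 mRNA genes, 2 rRNA genes and 22 tRNA genes. One library, labelled siControl and wild type, came from cells transfected without the CYP4F11 siRNA; its label names no control sequence. The other, labelled siCYP4F11, came from knockdown cells. The time given for both libraries is 24 h after transfection. With 1 library per group, no replicate spread exists, no test was possible, and every ratio compares these 2 libraries only. The series' design text names NCI-H469, whereas the sample labels name NCI-H460, and the labels were followed.

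The mitochondrial genome is a small circle whose genes lie almost end to end. It encodes core subunits of respiratory complexes I, III and IV and of ATP synthase, together with the rRNAs and tRNAs that the organelle needs to translate them. All other subunits, and the enzymes that copy, transcribe and process this genome, are made from nuclear genes. Both strands are transcribed into long precursors, and tRNAs between the coding genes mark where the precursor is cut. Most of the mRNAs then receive short poly-A tails, which complete the stop codon of those that end in T or TA.

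The target gene was checked first. CYP4F11 had 3180 counts in siControl and 972 in siCYP4F11, that is 197 and 74.5 CPM, counts after TMM scaling brings both libraries to one size. Its log2 ratio of siCYP4F11 over siControl was -1.40 (95% counting interval -1.51 to -1.30). Total counts were 16207785 and 13002179. Of epithelial markers, KRT8, KRT18, KRT19 and KRT7 were well counted, while EPCAM and CDH1 had at most 8 counts in either library. The lung lineage genes NKX2-1, SFTPB and SFTPC had at most 3 counts and NAPSA at most 11, and the squamous genes TP63 and KRT5 at most 4. Of markers of other cell types, PTPRC, CD3E, PECAM1, VWF and CDH5 had 0 counts, COL1A2 at most 4, and CD14, COL1A1 and DCN between 20 and 36.

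The ends of the 13 mRNA genes show how tightly the genome is packed. In 6 of them the annotated gene is not a whole number of codons, and the last codon is only begun. The last 30 bases of these 6 follow, 5′ to 3′ on the coding strand, with the begun stop codon in capitals. They are shown because only an added tail of A completes these messages, and the libraries were selected for poly-A RNA.
MT-ND1: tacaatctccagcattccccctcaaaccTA
MT-ND2: ctatctccccttttatactaataatcttaT
MT-CO3: tgtatgtctccatctattgatgagggtctT
MT-ND3: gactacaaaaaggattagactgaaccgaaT
MT-ND4: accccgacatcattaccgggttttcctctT
MT-CYB: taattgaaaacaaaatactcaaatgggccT
The other 7 end in a complete codon, TAA in MT-ATP6, MT-ND4L and MT-ND5, TAG in MT-CO2 and MT-ATP8, AGA in MT-CO1 and AGG in MT-ND6. The log2 ratios of the 6 genes with a begun stop codon ranged from -0.20 to 0.21 with a median of 0.05. Those of the 7 with a complete codon ranged from -0.34 to 0.10 with a median of -0.04, so the ranges overlapped widely.

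Reading frames overlap in a few places. MT-ATP8 and MT-ATP6, both subunits of ATP synthase, share 46 bases and are carried on 1 message. MT-ND4L and MT-ND4, both of complex I, share 7. The MT-ATP8 gene (chromosome MT, 8366 to 8572, plus strand) is shown whole because its ratio was the lowest of the 13 mRNA genes, with the bases it shares with MT-ATP6 in capitals. The last 30 bases of MT-ND4L follow, with those shared with MT-ND4 in capitals.
MT-ATP8: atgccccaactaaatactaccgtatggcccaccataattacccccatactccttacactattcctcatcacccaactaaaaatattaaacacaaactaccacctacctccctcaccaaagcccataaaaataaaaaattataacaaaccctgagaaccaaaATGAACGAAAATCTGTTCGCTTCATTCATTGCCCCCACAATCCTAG
MT-ND4L: gtacataacctaaacctactccaATGCTAA
Of the 207 bases of MT-ATP8, 161 lie in no other gene. How reads that cover more than 1 gene were counted is not given in the sources used here, so the level of such a short gene beside its neighbours is less certain than that of a long one.

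Mitochondrial transcripts took a similar part of both libraries. All 37 genes together had 945325 of the counts in siControl and 785260 in siCYP4F11, which is 5.83% (95% Clopper-Pearson interval 5.82% to 5.84%) and 6.04% (6.03% to 6.05%). Summed over the 37 genes the log2 ratio was 0.04 (0.03 to 0.04). These intervals cover counting error only: without molecular identifiers, reads are not separate molecules.

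The 3 classes of RNA differed in how much of this they held. The mRNA genes took 76.6% of the mitochondrial counts in siControl and 75.3% in siCYP4F11. The rRNA genes took 22.7% and 23.9%, and the tRNA genes 0.72% and 0.843%. The summed log2 ratio was 0.01 (0.01 to 0.02) for mRNA, 0.11 (0.11 to 0.12) for rRNA and 0.27 (0.22 to 0.32) for tRNA. In siControl MT-RNR2 held 191333 of 214156 rRNA counts, and MT-TC 3662 of 6802 tRNA counts, so these sums weigh single genes heavily. Measured genes ranged from -0.34 to 0.21 for mRNA, from 0.01 to 0.13 for rRNA and from 0.05 to 0.65 for tRNA. All shares are of counts after poly-A selection, and amounts of each class were not measured. In bulk samples such as these, a difference in the number of cells rich in mitochondria and a difference in mitochondrial RNA per cell cannot be told apart.

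Of the 37 genes, 21 reached a mean of 1 CPM and are called measured: the 13 mRNA genes, both rRNA genes and 6 tRNA genes. The 2-fold rule used here asks for a log2 ratio of 1 or more in either direction together with a counting interval that leaves out 0. By this rule 0 of the 21 were higher and 0 lower, where 0.703% of all 13942 measured genes were higher and 1.26% lower. At 1.5-fold the numbers were also 0 and 0, where 2.04% of all measured genes were higher and 3.44% lower. With no minimum fold, intervals of 9 members lay above 0 and of 6 below, where 18.6% and 19.2% of all measured genes did. Such intervals depend on depth. They excluded 0 for 14 of the 17 members with a mean of at least 100 CPM, 8 above 0 and 6 below. Over all genes of at least 100 CPM, 65.5% had such an interval, 31.6% above 0 and 33.9% below, and over genes of at least 1000 CPM 77.7% did, against 10 of 12 mitochondrial genes there. Among the most counted genes the share was thus near the background.

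The 13 mRNA genes were spread about as widely as other well-counted genes. Their log2 ratios had a median of 0.0015 and an SD of 0.146, where counting alone gives 0.016. The 2045 genes outside the mitochondrial genome with at least 100 CPM had a median of -0.0028 and an SD of 0.181, and the 91 of them with at least 1000 CPM a median of -0.03 and an SD of 0.147. The plot of all measured genes places the mRNA and rRNA genes on the right, among other genes of like level. The tRNA genes MT-TY, MT-TL1 and MT-TT lie far to the left of them, with fewer than 10 CPM in either library.

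**Figure D1:**
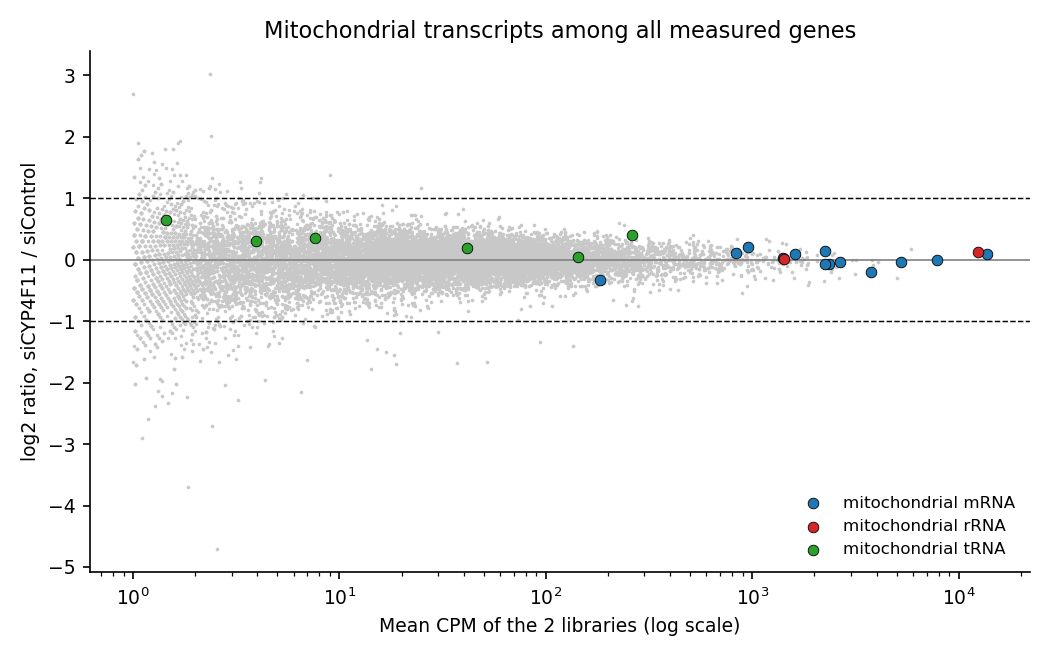
Log2 ratio of siCYP4F11 over siControl for each measured gene (vertical axis) against mean CPM on a log scale (horizontal axis), 1 point a gene, mitochondrial genes coloured by class and dashed lines at a log2 ratio of 1 in size. All 21 measured mitochondrial genes lie between the dashed lines, from -0.34 to 0.65.

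Levels were compared between genes per kilobase of gene length. MT-CO1, the catalytic core subunit of complex IV (cytochrome c oxidase), was the most counted gene of the whole table in both libraries. It had 214473 and 184798 counts, siControl first, which is 8616 and 9180 CPM per kilobase. MT-RNR2, the 16S rRNA of the large mitochondrial ribosomal subunit, ranked next by counts, with 191333 and 168919, or 7603 and 8300 CPM per kilobase. These 2 genes held 42.9% of all mitochondrial counts in siControl and 45.0% in siCYP4F11.

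Among mRNA and rRNA genes, MT-ATP8 was lowest per kilobase in both libraries, at 985 and 779. MT-RNR1, MT-ND5 and MT-ND6 came next above it, between 1446 and 1646. Of the 15 genes, 9 had the same rank per kilobase in both libraries. The other 6 formed pairs that exchanged places: MT-CO2 with MT-RNR2, MT-CO3 with MT-ND4L, and MT-RNR1 with MT-ND5. MT-CO2 stood at 7815 and 7622 CPM per kilobase, and MT-RNR2 at 7603 and 8300.

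**Figure D2:**
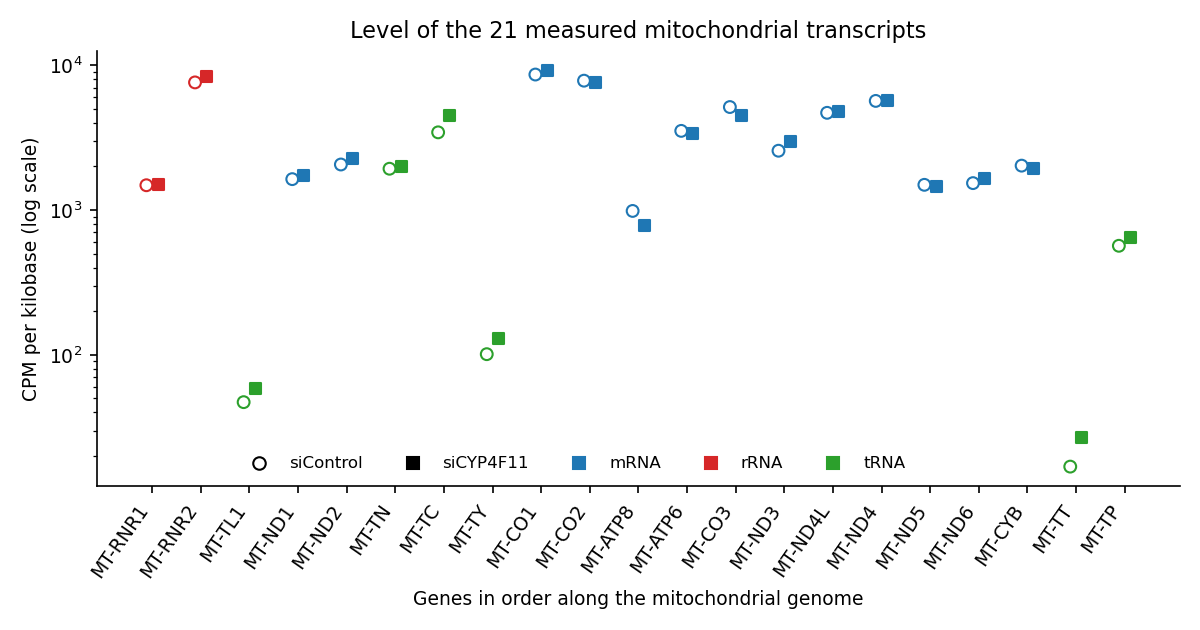
CPM per kilobase on a log scale for the 21 measured mitochondrial genes in their order along the genome, open circles for siControl and filled squares for siCYP4F11, 1 library each. Levels run from 16.9 for MT-TT in siControl to 9180 for MT-CO1 in siCYP4F11, and the value in siCYP4F11 is between 79.1% and 115% of siControl for mRNA and rRNA genes, 132% for MT-TC and 157% for MT-TT.

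The rRNA genes differed from each other by more than counting error. MT-RNR1, the 12S rRNA of the small ribosomal subunit (648 to 1601, plus strand), had 22823 counts in siControl and 18571 in siCYP4F11, a log2 ratio of 0.01 (-0.02 to 0.04). MT-RNR2 (1671 to 3229, plus strand) was at 0.13 (0.12 to 0.14). It was at 0.07 once the trend of the log2 ratio with GC content over genes of at least 10 CPM was removed. Per base, counts of MT-RNR2 stood at 5.13 times those of MT-RNR1 in siControl and 5.57 times in siCYP4F11. The libraries were selected for poly-A RNA, so these are ratios of captured counts, and amounts of rRNA were not measured. The ratio between the 2 genes does not depend on library scaling, and its log2 difference was 0.12 (Wald interval 0.09 to 0.15, counting error only). It carries no GC correction. With the GC trend removed MT-RNR1 was at -0.01, beside the 0.07 of MT-RNR2.

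Complex I, which takes electrons from NADH, has 7 mitochondrially encoded subunits, all in its membrane arm. Of these, 6 had a log2 ratio above 0 and 1 below, although 1 of the 6, MT-ND4, was at 0.00, and both it and MT-ND4L were below 0 once the GC trend was removed. MT-ND3, which lies where the membrane arm meets the peripheral arm, had 14332 counts in siControl and 13365 in siCYP4F11, a log2 ratio after scaling of 0.21 (0.17 to 0.24). It was the highest of the 13 mRNA genes.

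MT-ND2 had 34664 and 30752 counts (0.13, 0.11 to 0.16), and its neighbour upstream MT-ND1 had 25201 and 21677 (0.09, 0.06 to 0.12). MT-ND6, the only mRNA gene on the minus strand, had 12988 and 11281 counts (0.10, 0.07 to 0.14). These 3 were higher in siCYP4F11 by less than 10% of the control level. The bicistronic pair was close to the control, with MT-ND4L at 0.03 (0.01 to 0.06) and MT-ND4, at 126024 and 102019 counts, at 0.00 (-0.01 to 0.01). MT-ND5, with 43640 and 34214 counts, was the 1 below 0, at -0.04 (-0.07 to -0.02).

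MT-ND6 and MT-ND5 lie end to end on opposite strands. Per base MT-ND6 was 1.03 times MT-ND5 in siControl and 1.14 times in siCYP4F11, a log2 difference of 0.15 (0.11 to 0.19). As for the rRNA genes, these are ratios of counts captured by poly-A selection, and amounts of RNA were not measured. The library method marks strand, but the strand setting of the counting is not given in the sources used here. Reads of MT-ND6 and of RNA from the opposite strand therefore cannot be told apart from the table.

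In complex IV the 3 subunits had ratios on both sides of 0. MT-CO1 was above 0, at 0.09 (0.08 to 0.10). MT-CO2, which holds the first copper centre, had 86288 and 68063 counts and was at -0.04 (-0.05 to -0.02). MT-CO3 (9207 to 9990, plus strand), a subunit of the structural core, had 65038 and 45663 counts and was at -0.20 (-0.22 to -0.19), the second lowest mRNA gene. Relative to MT-CO1 in the same library, MT-CO3 was 0.596 per base in siControl and 0.486 in siCYP4F11, a log2 difference of -0.30 (-0.31 to -0.28).

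Cytochrome b of complex III, MT-CYB, had 37274 and 28747 counts, at -0.07 (-0.09 to -0.05). Both ATP synthase subunits were below 0 as well. MT-ATP6, part of the proton channel, had 38677 and 29865 counts and was at -0.07 (-0.09 to -0.04). MT-ATP8, a small membrane subunit, had 3292 and 2105 counts and was at -0.34 (-0.42 to -0.26), which is 79.1% of the control level.

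Of the 2045 genes outside the mitochondrial genome with at least 100 CPM, 5.82% had a log2 ratio at least as large in size as that of MT-ATP8. For MT-CO3 the share was 24.0% and for MT-ND3 23.8%. Differences of the size seen for MT-CO3 and MT-ND3 were thus common among well-counted genes in these libraries, and that of MT-ATP8 less so.

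**Figure D3:**
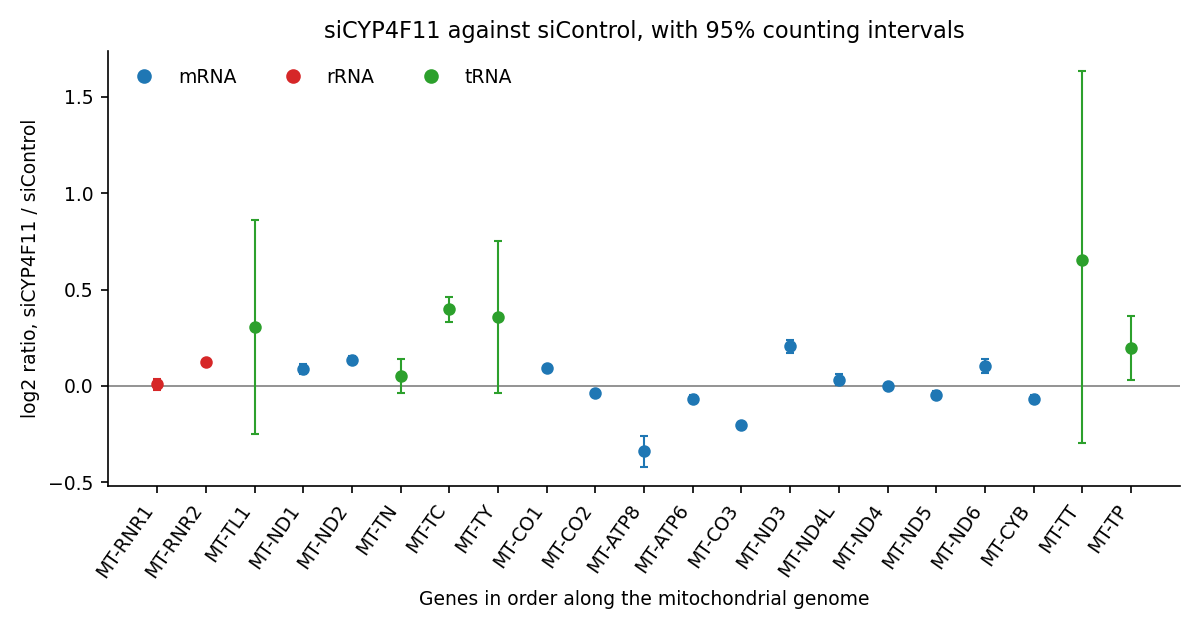
Log2 ratio of siCYP4F11 over siControl (vertical axis) with 95% counting intervals for the 21 measured mitochondrial genes in genome order, coloured by class. The 3 genes from MT-ATP8 to MT-CO3 sit below 0 and MT-ND3, next in the plot, at 0.21, while the thinly counted MT-TL1 and MT-TT have wide intervals.

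Neighbours on the plus strand come from the same precursor, so ratios between them compare RNAs with a shared start. Without GC correction, the largest such difference computed for mRNA genes lay between MT-CO3 and MT-ND3, which the tRNA gene MT-TG separates. MT-CO3 was 2.00 times MT-ND3 per base in siControl and 1.51 times in siCYP4F11, a log2 difference of -0.41 (-0.45 to -0.37). Differences between neighbours carry no GC correction. With the GC trend removed MT-CO3 was at -0.21, MT-ND3 at 0.11, MT-ATP8 at -0.44, MT-ATP6 at -0.10 and MT-CO2 at -0.05. The difference between MT-CO3 and MT-ND3 was then no longer the largest. MT-ATP8 and MT-ATP6, on 1 message, also differed: MT-ATP8 was 0.28 of MT-ATP6 per base in siControl and 0.232 in siCYP4F11, a log2 difference of -0.27 (-0.35 to -0.19). Per kilobase of bases in no other gene, MT-ATP8 and MT-ATP6 had 1267 and 3779 CPM in siControl, and 1002 and 3608 in siCYP4F11. How reads over both genes were counted is not given, so whether the RNA or the counting differed was not tested.

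MT-ATP8 also differed from MT-CO2 on its other side, by -0.30 (-0.38 to -0.22). Of the 11 pairs of mRNA genes that follow each other on the plus strand, these 3 differed most. For MT-ND3 against MT-ND4L the log2 difference was 0.17 (0.13 to 0.22), for MT-CO3 against MT-ATP6 -0.14 (-0.17 to -0.11), and for MT-CO2 against MT-CO1 -0.13 (-0.14 to -0.11).

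The other 5 pairs differed by less than 0.05 in size. MT-CO1 against MT-ND2 was at -0.04 (-0.07 to -0.02) and MT-ND5 against MT-ND4 at -0.05 (-0.07 to -0.02). MT-ND4L was 0.827 of MT-ND4 per base in siControl and 0.846 in siCYP4F11, a log2 difference of 0.03 (0.0012 to 0.06). MT-ND2 was 1.26 times MT-ND1 and then 1.30 times, a difference of 0.04 (0.01 to 0.08). MT-CYB against MT-ND5 differed by -0.02 (-0.05 to 0.01), an interval that includes 0.

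Within the mRNA counts the make-up was much the same. MT-CO1 took 29.6% of them in siControl and 31.3% in siCYP4F11, the largest difference in points, at 1.65. MT-CO3 took 8.98% and 7.72%, the largest difference the other way. Complex IV as a whole took 50.5% in both libraries, since MT-CO1 on one side and MT-CO2 and MT-CO3 on the other balanced. Complex I took 38.6% and 39.2%, MT-CYB 5.15% and 4.86%, and the ATP synthase pair 5.79% and 5.41%. With MT-CO1 left out of the total, the difference of MT-ND4 changed sign, from -0.14 to 0.39 points.

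**Figure D4:**
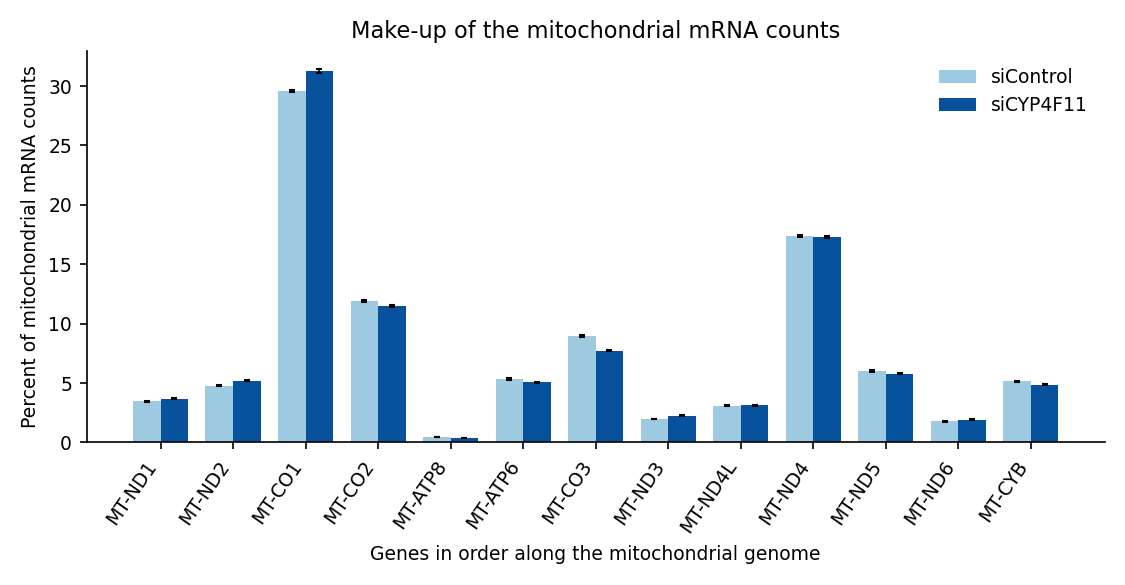
Share of the mitochondrial mRNA counts held by each of the 13 genes, in percent, for siControl (light bars) and siCYP4F11 (dark bars), with exact 95% binomial intervals for counting error. MT-CO1, MT-ND4 and MT-CO2 hold 58.9% in siControl and 60.0% in siCYP4F11 between them.

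The log2 ratios of the 13 mRNA genes were compared with simple properties, as a description across genes that share 2 libraries. Spearman correlations were 0.03 with gene length, -0.26 with GC content and 0.13 with the level per kilobase in siControl. Pearson correlations were 0.15, 0.03 and 0.07 in that order, so the sign for GC content depended on the measure. GC content ran from 39.6% in MT-ATP8 to 47.7% in MT-ND1. A smooth fit of the log2 ratio on GC content was made over genes with a mean of at least 10 CPM. At the GC contents of all measured genes it ran from -0.15 to 0.26. At the GC contents of these 13 it gave -0.0021 to 0.11, and with it removed MT-ND3 was at 0.11, MT-ATP8 at -0.44 and MT-CO3 at -0.21. The same correction took MT-ND2 from 0.13 to 0.08 and MT-ND6 from 0.10 to 0.05. It took MT-ATP6 from -0.07 to -0.10 and MT-ND5 from -0.04 to -0.07. MT-ND4L and MT-ND4 moved to -0.02 and -0.03, below 0. The SD of the 13 log2 ratios was 0.146 before this correction and 0.152 after it.

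Few tRNA genes were counted. Mature tRNAs are short, folded and carry no lasting poly-A tail, so a poly-A library holds little of them. Of the 22 tRNA genes, 16 were below a mean of 1 CPM. Of those 16, 5 (MT-TF, MT-TQ, MT-TM, MT-TS2 and MT-TL2) had 0 counts in both libraries, which allows up to 3 counts, or 0.186 CPM in siControl and 0.230 in siCYP4F11. The other 11 had at most 15 counts in a library.

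Nearly all tRNA counts fell on 4 genes, and all 4 lie on the minus strand, which carries 8 of the 22. The rest on that strand, MT-TQ, MT-TA, MT-TS1 and MT-TE, had at most 5 counts in a library. MT-TC, MT-TN, MT-TP and MT-TY held 97.9% of the tRNA counts in siControl and 98.0% in siCYP4F11. The 14 tRNA genes on the plus strand had 133 and 124 counts in all. The strand setting of the counting is not given in the sources used here. Reads of these 4 genes and of RNA from the opposite strand therefore cannot be told apart from the table. The 4 gene sequences follow because they held nearly all tRNA counts. They are written 5′ to 3′ as the RNA reads but with T for U, and with the anticodon in capitals.
MT-TC: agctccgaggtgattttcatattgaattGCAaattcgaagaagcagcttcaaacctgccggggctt
MT-TN: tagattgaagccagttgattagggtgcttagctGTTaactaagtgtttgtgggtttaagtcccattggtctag
MT-TY: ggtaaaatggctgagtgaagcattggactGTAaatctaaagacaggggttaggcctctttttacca
MT-TP: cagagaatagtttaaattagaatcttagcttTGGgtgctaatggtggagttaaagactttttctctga
No 50-base stretch of these 4 occurs in an annotated transcript of any gene outside the mitochondrial genome. Nuclear DNA outside annotated transcripts was not searched, so whether reads of these 4 are shared with copies there was not tested.

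MT-TC, the tRNA for cysteine (5761 to 5826), had 3662 counts in siControl and 3899 in siCYP4F11, although the latter library was the smaller. Its log2 ratio was 0.40 (0.33 to 0.46), 132% of the control level, the highest of the 17 members with at least 100 CPM. Of the 2045 other genes of that level, 3.23% had a ratio at least as large in size. MT-TN, the tRNA for asparagine (5657 to 5729), lies 31 bases away on the same strand, across the origin of light-strand replication. It had 2271 and 1902 counts, at 0.05 (-0.04 to 0.14). MT-TC was thus 1.78 times MT-TN per base in siControl and 2.27 times in siCYP4F11, a log2 difference of 0.35 (0.24 to 0.46).

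MT-TP, the tRNA for proline (15956 to 16023), had 621 and 576 counts, at 0.20 (0.03 to 0.36), but at 0.0022 with the GC trend removed. MT-TY, the tRNA for tyrosine (5826 to 5891), which overlaps MT-TC by 1 base, had 108 and 112 counts, at 0.36 (-0.04 to 0.75). MT-TL1 on the plus strand, a leucine tRNA, had 57 counts in each library, at 0.31 (-0.25 to 0.86). MT-TT, for threonine, had 18 and 23, at 0.65 (-0.29 to 1.64). All 6 measured tRNA genes were above 0, but the intervals of 4 of them included 0. With the GC trend removed MT-TL1 was at 0.19 and MT-TN at -0.03, below 0.

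Of the tRNA genes below 1 CPM, MT-TG alone had an interval that excluded 0. It had 15 counts in siControl and 3 in siCYP4F11, a log2 ratio of -1.84 (-4.45 to -0.19), and lies between MT-CO3 and MT-ND3. With no filter on low counts it would be 1 member lower and 0 higher by the 2-fold rule, where 1.84% of the 25908 genes with any count were lower and 1.33% higher. MT-TW had 1 and 6 counts and MT-TI 9 and 4, and the intervals of both included 0.

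Copies of mitochondrial DNA in nuclear chromosomes can share reads with these genes. The table holds 407 genes named as such copies, of which 363 had 0 counts in both libraries and 7 reached a mean of 1 CPM. All 407 together took 0.0683% of counts in siControl and 0.0687% in siCYP4F11. Of the 50-base stretches of MT-CO1, 49.5% also occur in a nuclear transcript, and for MT-ATP6 and MT-ND2 the shares were 46.7% and 43.6%. For MT-CO3 it was 30.6%, for MT-ATP8 8.23%, and for MT-ND3, MT-ND4L and MT-RNR1 0.

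The well-counted copies lie together on chromosome 1 (GRCh38, plus strand). MTATP6P1 (633696 to 634376) had 4759 and 3523 counts, at -0.13 (-0.19 to -0.06). MTCO1P12 (631074 to 632616) had 4410 and 3708, at 0.06 (-0.01 to 0.12), and MTND2P28 (629640 to 630683) had 1761 and 1580, at 0.15 (0.05 to 0.25). Adding all copies of a gene to it moved MT-ATP6 from -0.0667 to -0.0731, MT-CO1 from 0.0915 to 0.0909 and MT-ND2 from 0.1336 to 0.1343. Copies held 11% of the counts so summed for MT-ATP6 in siControl and 10.6% in siCYP4F11.

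Respiratory complexes hold nuclear-encoded subunits beside these. In complex I, 36 of 37 nuclear genes were measured, with a median log2 ratio of 0.07 and 26 above 0. NDUFB5, a membrane arm subunit, was at 0.52 (0.39 to 0.65) and NDUFS4, an accessory subunit, at 0.31 (0.18 to 0.44). In complex IV, 11 of 15 were measured and all 11 were above 0, with a median of 0.16. With the GC trend removed, 10 were above 0 and the median was 0.13. NDUFA4 was at 0.33 (0.25 to 0.40) and COX7A2 at 0.33 (0.23 to 0.43).

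Complex III had a median of 0.07 over 9 nuclear genes with 6 above 0 (0.13 with the GC trend removed), led by UQCR10 at 0.31 (0.18 to 0.44) and UQCRQ at 0.22 (0.14 to 0.30). ATP synthase had a median of 0.06 over 16 with 13 above 0, led by ATP5MG at 0.37 (0.20 to 0.55) and ATP5PF at 0.26 (0.15 to 0.38). Over all measured genes the median was -0.01 and 49.2% were above 0. Set beside these, the 7 mitochondrial members of complex I had a median of 0.09, with 6 above 0 (4 with the GC trend removed), near that of the nuclear subunits. The others stood at -0.07 for complex III, at -0.34 and -0.07 for ATP synthase, and from -0.20 to 0.09 for complex IV. The difference between nuclear and mitochondrial subunits was not tested.

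**Figure D5:**
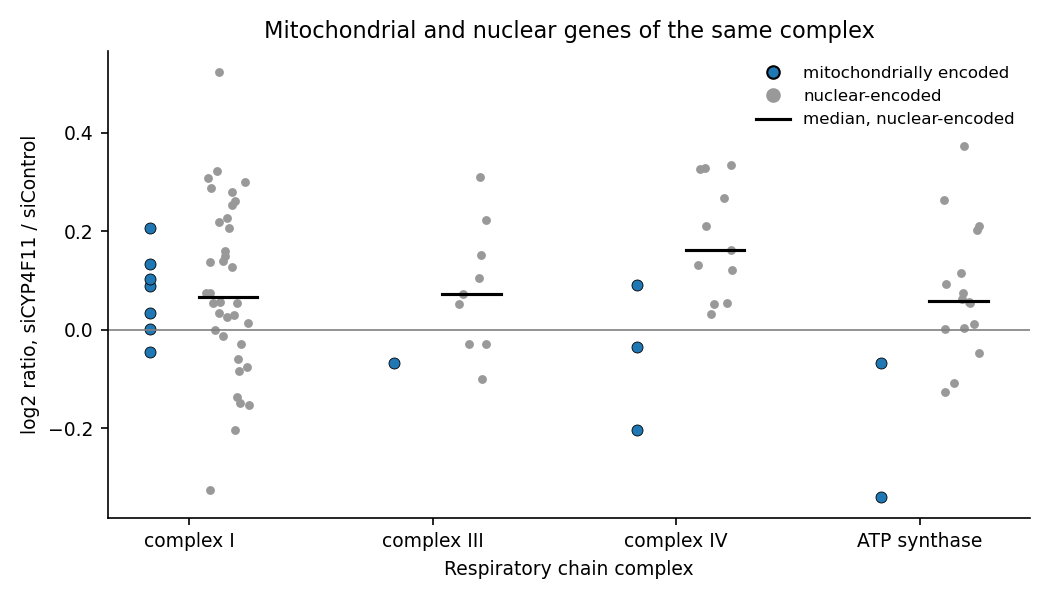
Log2 ratio of siCYP4F11 over siControl (vertical axis) for mitochondrially encoded (blue) and measured nuclear-encoded (grey) subunits of 4 complexes, 1 point a gene, with the nuclear median as a black line. Nuclear medians lie between 0.06 and 0.16. Of the mitochondrial genome's points, 6 of 7 lie above 0 for complex I (4 with the GC trend removed), 1 of 3 for complex IV and 0 for complex III and ATP synthase.

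The nuclear genes that copy, transcribe and process the mitochondrial genome were taken from lists. None of these, nor any of the nuclear subunits above, passed the 2-fold rule: of 167 different genes measured, 0 were higher and 0 lower, against the 0.703% and 1.26% of all genes. Mitochondrial transcription had a median of 0.06 over 10 genes with 7 above 0, and of -0.01 with the GC trend removed. TFAM, which packages the genome and starts its transcription, had 1653 counts in siControl and 1621 in siCYP4F11, at 0.28 (0.18 to 0.38). TEFM, the elongation factor of the mitochondrial RNA polymerase, had 120 and 149, at 0.62 (0.26 to 0.98).

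Genome replication and nucleotide supply had a median of -0.11 over 17 genes with 10 below 0, and of -0.03 with the GC trend removed. POLG, the catalytic subunit of the mitochondrial DNA polymerase, had 898 and 551 counts, at -0.40 (-0.55 to -0.24). RRM2B, a ribonucleotide reductase subunit that supplies DNA precursors outside S phase, had 671 and 771, at 0.51 (0.36 to 0.66). The biogenesis regulators had a median of -0.05 over 7 genes with 5 below 0, and of -0.03 with the GC trend removed. PPARGC1B, a coactivator of mitochondrial gene programmes, had 146 and 60 counts, at -0.97 (-1.44 to -0.53), just inside the 2-fold line, and ESRRA, a nuclear receptor it works with, was at -0.16 (-0.29 to -0.04).

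RNA processing had a median of 0.03 over 14 genes with 9 above 0, and of 0.02 with the GC trend removed. TRMT10C, a subunit of the enzyme that cuts the 5′ ends of tRNAs, had 423 counts in both libraries, at 0.31 (0.11 to 0.50), and ELAC2, which cuts the 3′ ends, had 1884 and 1295, at -0.23 (-0.34 to -0.13). These enzymes act at the ends of the tRNA genes described above. Genes of mRNA stability, polyadenylation and decay had a median of 0.09 over 8 with 5 above 0, and of 0.0015 with the GC trend removed. The decay helicase SUPV3L1 was at 0.20 (0.06 to 0.33) and its partner nuclease PNPT1 at -0.10 (-0.21 to 0.01).

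The lists that act on tRNA, rRNA and translation were centred near 0. Maturation of tRNA had a median of -0.0013 over 17 genes, with the RNA methyltransferase NSUN2 at -0.43 (-0.52 to -0.35) and the pseudouridine synthase PUS1 at -0.33 (-0.43 to -0.24). Modification of rRNA had a median of -0.07 over 11, with RPUSD4 at -0.33 (-0.54 to -0.12) and TRUB2 at -0.24 (-0.40 to -0.09). Translation factors had a median of -0.02 over 13, with the elongation factor TUFM at -0.30 (-0.36 to -0.24) and the release factor MTRF1L at -0.65 (-0.95 to -0.37).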

How the data were processed

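RNA sequencing counts of 2 libraries were analysed, 1 per group. The libraries were stranded and prepared from RNA bound to poly-T beads, per the labels' protocols. The authors deposited 1 table of whole-number read counts per gene, not normalised, with other columns that give each gene's coordinates and length in bases. GRCh38 is the build in the submitters' processing notes, which also list HISAT2 2.2.1, featureCounts 2.0.6, fastp and edgeR 4.0.16. Their roles and settings, strand and multi-mapped reads included, are not given in the sources used here. Further sample columns numbered 0.

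Library sizes were scaled by TMM (edgeR 4.0.16, R 4.3.3). For each gene, 0.5 was added to each count, and the 95% interval was derived from an exact Clopper-Pearson interval for the part of both counts found in siCYP4F11. Intervals cover counting error only. No p-value was computed, since edgeR's quasi-likelihood test needs replicates. Depth gave a floor of 3 counts, 0.186 CPM in siControl and 0.230 in siCYP4F11.

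Members and lists were chosen with earlier results of these data known. The 12 nuclear lists held 172 different genes. All MT- genes and CYP4F11 were named, and of each nuclear list up to 4 members past the size rule. Where none passed, the 2 measured members whose interval bound nearest 0 lay furthest from it were named. PNPT1, whose interval includes 0 but passed it least in its list, made up the 2 there. Coordinates, strands and lengths of all 37 genes equalled those of GENCODE release 29, which supplied the sequences. Alternatives were DESeq2 1.42.0 size factors, other library sizes, filters, folds, added counts and denominators, a GC correction (lowess, span 0.3, statsmodels 0.14.6) and adding nuclear copies. The GC trend was fitted on genes with a mean of at least 10 CPM. Python 3.11.15, numpy 2.4.6, scipy 1.17.1, pandas 2.3.3 and matplotlib 3.10.9 were used.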

Additional observations from a re-analysis of the deposited data

How the results depend on the processing

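No mitochondrial gene with a mean of at least 1 CPM passed the 2-fold rule under any scaling, the GC correction, 2 added to each count, filters of 5 and 10 CPM or a 1.5-fold threshold. With no filter 1 gene was lower (MT-TG), because genes below 1 CPM then enter, where 1.84% of all genes with any count were lower. With no minimum fold, 9 were higher and 6 lower, which follows from the laxer rule. The median of the 13 mRNA genes stayed within its interval over members (-0.07 to 0.10), from -0.0324 with the GC correction to 0.0162 with total counts outside the mitochondrial genome. Of 21 measured genes, 0 changed sign under the other scalings or added count. With the GC correction 4 did (MT-RNR1, MT-TN, MT-ND4L and MT-ND4, all near 0), and 11 left their counting interval, MT-TP going to 0.0022. The mitochondrial share of counts was 6.07% in siControl and 6.29% in siCYP4F11 over protein-coding counts, 4.47% and 4.55% for mRNA genes alone, and 5.90% and 6.11% with nuclear copies added, which follows from each definition. Of the 12 list medians, 0 left their interval over members, but the GC correction moved several by more than 1.5 times, among them replication from -0.11 to -0.03 and mRNA stability from 0.09 to 0.0015. In sign, 1 changed under each scaling other than TMM (tRNA maturation) and 1 under the GC correction (transcription, -0.0122). These list alternatives, and the single-gene ratios with copies added, were chosen after the data were seen. No paired analysis was possible because each group has 1 library. Depth limits the tRNA genes, 16 of which were below 1 CPM.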
